A study of Rattus norvegicus with 12 samples.

Results

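A set of 10 immediate early genes was followed in cultured rat heart muscle: Fos, Jun, Junb, Egr1, Atf3, Nr4a1, Ier2, Ier5, Csrnp1 and Myc. They were found as every probe set of the deposited value table whose single gene symbol is one of these 10, which gave 15 of 31042 probe sets that were not controls. Jun and Ier5 had 3 probe sets each, Fos had 2 and the other 7 genes had 1. The mean over all arrays lay above the intensity filter, the 40th percentile of all probe sets (4.91 on the log2 scale), for 12 of the 15. The 3 under it were a second Fos probe set (1371283_at) and 2 of the 3 Ier5 probe sets (1389882_at and 1375202_at). They were left out of the tests and are described on their own.

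The tissue was the right ventricular papillary muscle, a small column of heart muscle that holds the tricuspid valve, from adult male LBNF1 rats. The labels give ages, without a unit, of 78 to 85 in the high-high, 72 to 81 in the high-low and 75 to 84 in the low-high group, and of 75 for all 3 low-low animals. Every muscle was paced at 1 Hz in medium at 37 °C for 12 h while a controlled waveform set its length, and RNA was taken at the end of culture. In the high-high group mean stretch and cyclic shortening both had a target of 16% of slack length. In the high-low group stretch was at 16% and shortening at 4%. In the low-high group stretch was at 4% and shortening at 16%. In the low-low group both were at 4%. Mean stretch is named before shortening in these group names throughout. Each group held 3 muscles, each from its own rat, so the spread between arrays is the spread between animals. No uncultured muscle was analysed here, so levels are compared between loads and not with the intact heart.

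Immediate early genes are switched on within minutes of a stimulus from transcription factors that are already present, such as serum response factor with its ETS-family partners and CREB, and most of their messages are short-lived. Fos and Jun family proteins pair to form AP-1, which binds DNA and drives a second wave of genes. Stretch, pacing, hormones and tissue handling all raise such genes in heart muscle, and AP-1, EGR1 and MYC have long been used as early markers of the response of cardiomyocytes to load.

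The 3 low-low arrays were set apart from the rest over all probe sets, and this touches every comparison that uses them. Pearson's r over 31042 probe sets, a description since probe sets are no replicates, ran from 0.984 to 0.996 within the other 9 arrays, from 0.991 to 0.993 within the low-low ones, and from 0.951 to 0.962 across the divide. The 3' to 5' index, the mean excess of the 3' over the 5' signal of the Gapdh and Actb control probe sets, was 2.94 ± 0.32 in high-high, 3.77 ± 0.63 in high-low, 3.21 ± 0.045 in low-high and 1.36 ± 0.29 in low-low muscles (log2, SD, n = 3 each). The labelled weight, whose unit is not stated, was 280.3 ± 10.5 over the other 9 animals and 311 ± 6.51 in the low-low group (SD). All 11 cardiomyocyte markers with a probe set passed the filter, and the mean log2 level of that list was 13.26, 13.20 and 13.22 in the high-high, high-low and low-high groups against 13.56 in the low-low group. The fibroblast list (8 of 8 genes past the filter) stood at 9.04, 8.98 and 8.90 against 9.50, and the macrophage list (6 of 8, with all 8 in the mean) at 5.77, 5.75 and 5.70 against 5.96. Genes within each list went both ways in the low-low group. Col3a1 averaged 7.16, 7.27 and 7.08 against 9.69, but Postn 8.37, 7.98 and 8.28 against 7.54. C1qc averaged 6.16, 5.98 and 6.23 against 7.22, but Mrc1 6.33, 6.47 and 6.42 against 5.77. Of the cardiomyocyte markers, Tnni3 averaged 13.22, 13.02 and 13.19 against 14.12, but Ryr2 13.12, 13.14 and 13.02 against 12.78. The endothelial, smooth muscle and erythrocyte lists also had their highest mean in the low-low group, but other lists did not. The atrium list stood at 5.27, 5.33 and 5.18 against 5.03. The T and B cell list stood at 5.28, 5.17 and 5.28 against 5.20, and the Schwann and nerve list at 5.28, 5.15 and 5.04 against 5.12. The atrial light chain Myl7 and all 4 neutrophil markers were under the filter. The part of these differences in the results below was not tested. In RNA from whole tissue, fewer cells of a type and less RNA per cell cannot be told apart.

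**Figure D1:**
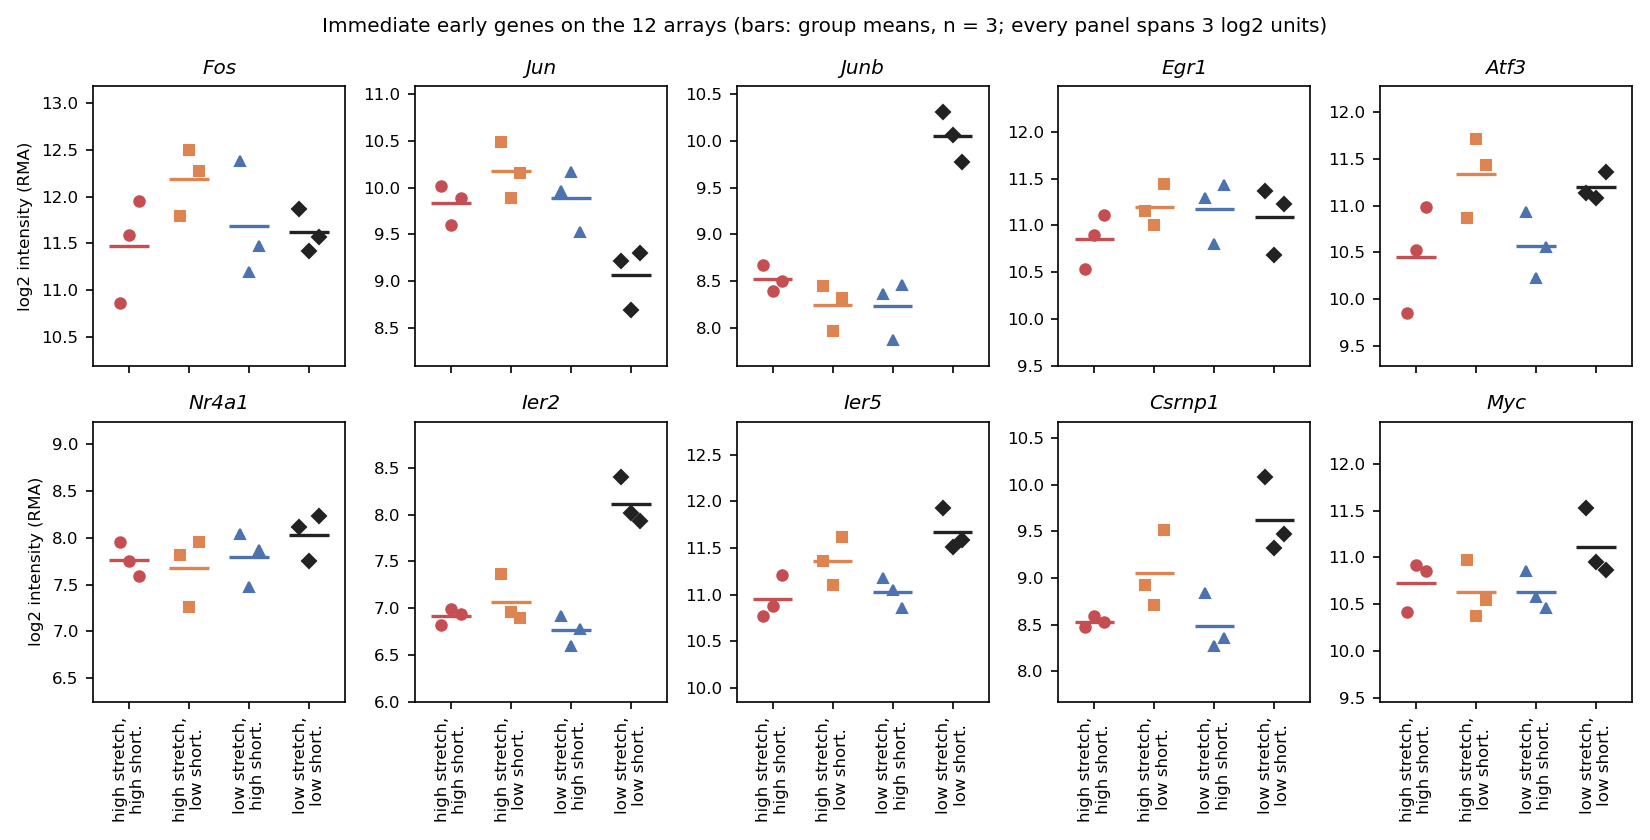
Log2 intensity (y axis) of the 10 genes, each at its probe set of highest mean, in each of the 12 muscles, by group (x axis: high-high, high-low, low-high, low-low); each point is 1 muscle and each bar the group mean. The low-low points lie above all others in Junb and Ier2 and below all others in Jun, while Fos and Egr1 overlap between all groups compared.

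Junb and Ier2 were highest, and Jun lowest, in the low-low muscles, where either high input alone went with a change of 1.77-fold to 3.54-fold at their brightest probe sets. Csrnp1, Atf3 and Ier5 fell with shortening, averaged over both levels of stretch, by 1.77-fold, 1.69-fold and 1.44-fold. Junb and Ier2 were lower by 1.70-fold and 1.69-fold on the same average, but not alike at both levels of stretch. In log2, shortening gave 0.28 at high and -1.82 at low stretch in Junb, and -0.16 and -1.35 in Ier2. Each average includes the comparison with the low-low group, and no gene passed for shortening at high stretch alone. Fos at its bright probe set, Egr1, Nr4a1 and Myc were expressed in all 4 groups and passed in no contrast.

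On the Jun side of AP-1, Junb encodes a Jun family partner that dimerizes with Fos proteins and can oppose c-Jun at some promoters. Junb had log2 intensities of 8.68, 8.40 and 8.50 in high-high, 8.44, 7.96 and 8.32 in high-low, 8.37, 7.87 and 8.45 in low-high, and 10.31, 10.07 and 9.78 in low-low muscles. The low-low muscles were higher than each of the other 9, with no overlap, and those 9 overlapped one another. With low shortening, high stretch was 3.50-fold lower in Junb than low stretch (log2 difference -1.81, 95% interval -2.22 to -1.39, limma adjusted p = 1.03e-05). With low stretch, high shortening was 3.54-fold lower than low shortening (-1.82, -2.24 to -1.41, adjusted p = 1.05e-05). Either high input alone thus went with a lower Junb level, and the muscles with both inputs high overlapped those with one. The interaction, which is the effect of shortening at high stretch minus its effect at low stretch, was 2.10 (1.52 to 2.69, adjusted p = 0.000122). With this index as a covariate the interaction was 1.76 and the stretch difference -1.50, and neither passed (adjusted p = 0.134 and 0.112), while the shortening difference did (-1.58, adjusted p = 0.0332).

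Ier2, a nuclear protein encoded by a serum-responsive gene, was likewise highest in the low-low group. Its log2 intensities were 6.82, 6.99 and 6.94 in high-high, 7.36, 6.96 and 6.89 in high-low, 6.91, 6.59 and 6.77 in low-high, and 8.40, 8.01 and 7.93 in low-low muscles. Again all 3 low-low muscles were above the other 9. High stretch at low shortening was 2.06-fold lower (-1.04, -1.40 to -0.69, adjusted p = 0.000212) and high shortening at low stretch 2.56-fold lower (-1.35, -1.70 to -1.002, adjusted p = 3.07e-05). The interaction was 1.20 (0.70 to 1.70, adjusted p = 0.00188). With the index as a covariate these became -0.52 (adjusted p = 0.500), -0.95 (0.0954) and 0.61 (0.540), and none of the calls held. The standard error of the stretch difference was 0.45 in that fit, against 0.16 without the index. With the labelled weight as a covariate the values were -1.33, -1.59 and 1.53, and each passed (limma adjusted p = 0.0121, 0.00197 and 0.0265).

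Junb and Ier2 lie on the same rat chromosome, and the 250 bases before each start are shown with those of Nr4a1, whose level did not separate the groups, because these windows carry the letters that CREB and related factors bind. They come from the RefSeq promoter table of the rat assembly GRCr8, which held 5 of the 10 genes (Junb, Egr1, Nr4a1, Ier2 and Ier5). Each sequence runs 5′ to 3′ toward the start of its gene. Capitals mark the cyclic AMP response element (CRE, TGACGTCA) and its short form TGACG, read on either strand, so that CGTCA is the short form on the other strand. The full element contains the short form on both strands.
Junb (chr19:40080876-40081125, plus strand): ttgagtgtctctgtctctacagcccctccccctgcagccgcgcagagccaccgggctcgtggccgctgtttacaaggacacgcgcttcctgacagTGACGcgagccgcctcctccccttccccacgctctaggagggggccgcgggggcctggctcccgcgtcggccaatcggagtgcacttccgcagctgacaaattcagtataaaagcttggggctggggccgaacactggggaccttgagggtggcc
Ier2 (chr19:40399123-40399372, plus strand): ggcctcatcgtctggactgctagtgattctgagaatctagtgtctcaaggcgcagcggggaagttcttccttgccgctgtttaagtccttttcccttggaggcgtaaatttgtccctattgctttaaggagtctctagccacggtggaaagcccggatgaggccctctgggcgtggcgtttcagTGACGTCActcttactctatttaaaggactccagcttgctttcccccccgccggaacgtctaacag
Nr4a1 (chr7:134259888-134260137, plus strand): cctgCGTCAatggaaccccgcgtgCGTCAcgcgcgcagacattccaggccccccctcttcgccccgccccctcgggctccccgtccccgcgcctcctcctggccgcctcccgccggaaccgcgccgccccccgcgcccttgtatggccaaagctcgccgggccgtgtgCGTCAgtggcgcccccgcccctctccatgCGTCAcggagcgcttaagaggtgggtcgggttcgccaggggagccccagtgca

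Ier2 held the full element, beginning 66 bases before its start, which 1.59% of 33469 RefSeq promoter windows of the same length held. Junb held a single short form, 155 bases before the start, with a CCAAT box at 85 and a TATAAA at 49. Nr4a1 held 4 short forms, the nearest 53 bases before the start, and 1 EGR site (GCGGGGGCG) at 73. The short form occurred in 18.2% of all windows, the EGR site in 2.45%, CCAAT in 34.0% and TATAAA in 12.9%. The window of Egr1, not printed, held 2 short forms and 2 CArG boxes, the site of serum response factor, at 105 and 83 bases, and 1.497% of all windows held a CArG box. That of Ier5 held 2 CCAAT boxes and a TATAAA but no CRE of either length and no CArG box. The AP-1 site TGACTCA, present in 4.05% of windows, was in none of the 5. These are matches of letters on both strands and not measured binding, and Junb and Nr4a1, which both hold the short form, differed in their levels across the groups.

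Jun encodes c-Jun, the AP-1 subunit that the stress kinases JNK phosphorylate. In Jun the low-low group was the lowest. The brightest probe set (1369788_s_at) had log2 intensities of 10.02, 9.60 and 9.89 in high-high, 10.49, 9.90 and 10.15 in high-low, 9.97, 10.17 and 9.53 in low-high, and 9.22, 8.69 and 9.30 in low-low muscles. All 3 low-low muscles were below the other 9. High stretch at low shortening was 2.16-fold higher (1.11, 0.64 to 1.58, adjusted p = 0.00117), high shortening at low stretch 1.77-fold higher (0.82, 0.35 to 1.29, adjusted p = 0.00797), and the interaction was -1.17 (-1.84 to -0.50, adjusted p = 0.0120).

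The second Jun probe set (1389528_s_at) had 7.58, 8.24 and 7.93 in high-high, 8.28, 8.14 and 8.12 in high-low, 8.28, 7.85 and 7.87 in low-high, and 7.65, 7.01 and 6.84 in low-low muscles. Only high-high replicate 1 reached into the low-low range. It passed for stretch at low shortening (1.01, adjusted p = 0.00225), for shortening at low stretch (0.83, adjusted p = 0.00769) and for the interaction (-1.10, adjusted p = 0.0170). The dimmest (1374404_at) had 5.81, 5.73 and 5.66 in high-high, 6.17, 6.21 and 5.94 in high-low, 6.04, 5.74 and 5.77 in low-high, and 5.72, 5.22 and 5.59 in low-low muscles. Here the high-low muscles were the highest group, above all of the high-high and low-low muscles. It passed for stretch at low shortening (0.60, adjusted p = 0.00520) and for the interaction (-0.72, adjusted p = 0.0201), but not for shortening at low stretch (0.34, adjusted p = 0.0765). Its interaction no longer passed without low-high replicate 1 (-0.62, adjusted p = 0.0535).

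The 3 Jun probe sets therefore had the same sign in both comparisons with the low-low group and in the interaction. They read a single gene, and the first 2 carry the suffix that Affymetrix gives to probe sets able to match more than 1 transcript. With the index as a covariate only the brightest kept its interaction (-2.44, adjusted p = 0.0454), and with the labelled weight as a covariate none of the 3 did (-1.50, -0.71 and -0.62, adjusted p = 0.0904, 0.427 and 0.307). The comparisons with the low-low group changed as well. The second probe set lost both its calls with the index (0.82 and 0.69, adjusted p = 0.452 and 0.400) and with weight (0.68 and 0.56, adjusted p = 0.290 and 0.311). The dimmest lost its stretch call with the index (1.17, adjusted p = 0.0852) and with weight (0.52, adjusted p = 0.247). The brightest kept its calls with the index (2.25 and 1.70, adjusted p = 0.0242 and 0.0220) but lost the one for shortening with weight (1.06, adjusted p = 0.0614).

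Fos encodes c-Fos, which needs a Jun partner to bind DNA. Its bright probe set 1375043_at had 10.87, 11.59 and 11.96 in high-high, 11.79, 12.50 and 12.27 in high-low, 12.38, 11.20 and 11.47 in low-high, and 11.87, 11.42 and 11.57 in low-low muscles. All 4 groups overlapped their neighbours, and the spread within the high-high group (SD 0.55) and the low-high group (SD 0.62) was as wide as most group differences. Stretch at low shortening gave 0.57 (-0.14 to 1.27, adjusted p = 0.167), shortening at low stretch 0.06 (-0.64 to 0.77, adjusted p = 0.891) and the interaction -0.78 (-1.78 to 0.21, adjusted p = 0.217). The other Fos probe set, under the filter, had 5.39, 5.16 and 4.93 in high-high, 4.99, 5.15 and 4.84 in high-low, 5.23, 4.88 and 4.85 in low-high, and 4.26, 4.28 and 4.38 in low-low muscles. Its low-low values were the lowest, and in a fit without the filter it passed in both comparisons with that group (0.69 and 0.68, adjusted p = 0.00235 and 0.00265). The 2 Fos probe sets thus did not give the same picture at low stretch. For shortening at high stretch their signs differed, with -0.72 at the bright and 0.16 at the dim one, and neither passed after adjustment.

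Atf3 encodes a stress-induced factor of the ATF/CREB family that often represses its targets. It had 9.85, 10.53 and 10.98 in high-high, 10.87, 11.71 and 11.43 in high-low, 10.93, 10.22 and 10.55 in low-high, and 11.14, 11.08 and 11.36 in low-low muscles. The 2 low-shortening groups were the high ones: low-high lay wholly below low-low, and high-high overlapped high-low at a single pair of muscles, high-high replicate 3 and high-low replicate 1. High shortening went with lower Atf3 at high stretch by -0.89 (-1.50 to -0.27, unadjusted p = 0.00885, adjusted p = 0.999) and at low stretch by -0.63 (-1.24 to -0.01, adjusted p = 0.0893). Neither passed alone. Averaged over both levels of stretch the difference was -0.76 (-1.19 to -0.32, 1.69-fold lower, adjusted p = 0.0132), and the interaction was -0.26 (-1.13 to 0.62, adjusted p = 0.663). The averaged difference was -1.06 with the index as a covariate (adjusted p = 0.00622) and -0.60 to -0.89 with any 1 array left out, and it passed each time. The index moved the 2 levels apart, to -0.38 at high and -1.74 at low stretch (adjusted p = 0.0598), so that the interaction turned to 1.36 (adjusted p = 0.369). With weight the interaction was 0.45 (adjusted p = 0.717).

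Csrnp1 and Ier5 also fell with shortening on average. Csrnp1, a nuclear protein first known as an axin-induced gene, had 8.48, 8.59 and 8.53 in high-high, 8.93, 8.71 and 9.52 in high-low, 8.84, 8.27 and 8.35 in low-high, and 10.08, 9.32 and 9.48 in low-low muscles. At each level of stretch the high-shortening muscles lay wholly below the low-shortening ones. The difference was -0.52 at high stretch (-1.03 to -0.0029, unadjusted p = 0.0489, adjusted p = 0.999) and -1.14 at low stretch (2.20-fold lower, -1.65 to -0.62, adjusted p = 0.00185), with -0.83 on average (adjusted p = 0.00288). With the index as a covariate the value at low stretch was -1.55 and did not pass (adjusted p = 0.0773), while the average did (-0.94, adjusted p = 0.00927).

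Ier5, a stress-responsive gene whose protein binds heat shock factor and a protein phosphatase, had 10.78, 10.88 and 11.22 in high-high, 11.37, 11.10 and 11.62 in high-low, 11.18, 11.05 and 10.86 in low-high, and 11.93, 11.51 and 11.58 in low-low muscles at its bright probe set (1389355_at). The high-shortening groups were lower, without overlap at low stretch and with overlap at high stretch. The difference was -0.40 at high stretch (-0.78 to -0.03, unadjusted p = 0.0380, adjusted p = 0.999), -0.65 at low stretch (-1.02 to -0.27, adjusted p = 0.00871) and -0.52 on average (adjusted p = 0.00656). At low stretch it did not pass with the index (-0.90, adjusted p = 0.150) or the weight (-0.75, adjusted p = 0.0986) as a covariate. Stretch at low shortening did not pass at the bright probe set (-0.31, limma adjusted p = 0.154). Of the dim Ier5 probe sets, 1389882_at had 6.17, 4.79 and 5.28 in low-low muscles and at most 4.65 in the other 9. In a fit without the filter it passed for stretch at low shortening (-0.96, limma adjusted p = 0.0164) and shortening at low stretch (-0.96, 0.0173). The other, 1375202_at, stayed between 4.20 and 4.65 in all 12.

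The EGR and NR4A members did not pass in any of the 7 contrasts fitted without covariates. Egr1, a zinc-finger factor driven by serum response factor, had 10.54, 10.90 and 11.12 in high-high, 11.15, 11.01 and 11.45 in high-low, 11.29, 10.81 and 11.43 in low-high, and 11.37, 10.68 and 11.23 in low-low muscles. Egr1 was bright in all 4 groups and the groups overlapped. Stretch at low shortening gave 0.11 (-0.38 to 0.59) and shortening at low stretch 0.08 (-0.40 to 0.57). Shortening at high stretch gave -0.35 (-0.84 to 0.13). With the labelled weight as a covariate both low-side values turned, to -0.85 (-1.52 to -0.17, adjusted p = 0.0738) and -0.70 (-1.29 to -0.11, adjusted p = 0.0815), and the average effect of stretch passed (-0.51, adjusted p = 0.0400). Nr4a1, an orphan nuclear receptor also known as Nur77, had 7.96, 7.75 and 7.59 in high-high, 7.82, 7.25 and 7.95 in high-low, 8.05, 7.47 and 7.87 in low-high, and 8.12, 7.75 and 8.23 in low-low muscles, again with overlap. Its differences lay between -0.36 and 0.09, and its interaction was 0.33. With the labelled weight as a covariate stretch at low shortening gave -0.89 (-1.73 to -0.04, limma adjusted p = 0.126). Shortening at low stretch then gave -0.67 (adjusted p = 0.171) and the interaction 0.94 (adjusted p = 0.230), and none of these passed.

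Myc, a growth-promoting transcription factor that pairs with MAX, had 10.41, 10.92 and 10.86 in high-high, 10.97, 10.38 and 10.54 in high-low, 10.85, 10.57 and 10.46 in low-high, and 11.53, 10.95 and 10.87 in low-low muscles. Low-low replicate 1 was the highest of the 12, and the other 2 low-low muscles lay near the top of the rest. Stretch at low shortening gave -0.49 (-0.95 to -0.02, adjusted p = 0.0798) and shortening at low stretch -0.49 (-0.96 to -0.02, adjusted p = 0.0804), and neither passed.

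**Figure D2:**
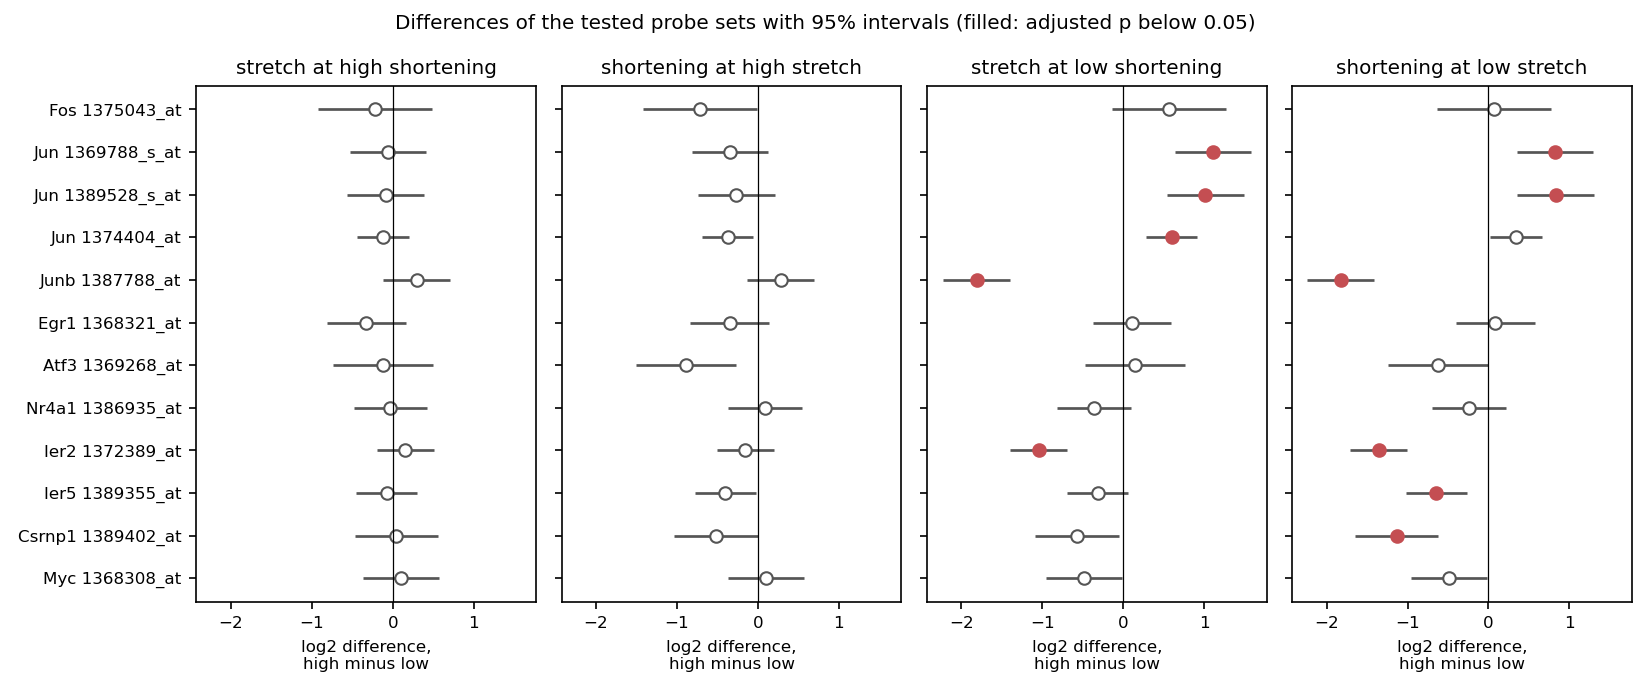
Log2 differences (x axis) with 95% confidence intervals for the 12 tested probe sets (y axis) in the 4 comparisons between groups (panels); filled points passed at an adjusted p below 0.05. Differences from the low-low group reach -1.82 in Junb and 1.11 in Jun, while no point is filled for shortening at high stretch or stretch at high shortening.

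Counted over the set, stretch at low shortening passed in 5 of 12 probe sets (3 higher, all Jun, and 2 lower), against 48.5% of the 18625 probe sets tested (24.1% higher and 24.4% lower). Shortening at low stretch passed in 6 of 12 (2 higher and 4 lower), against 47% of all (23.4% higher and 23.6% lower). The interaction passed in 5 of 12 (2 higher and 3 lower), against 32.3% (17.1% higher and 15.2% lower). The average effect of stretch passed in 4 of 12 (2 higher and 2 lower), against 33.6% (14.4% higher and 19.2% lower). In these contrasts the share of member probe sets called was near that of all probe sets, with Jun counted at 3 probe sets. The 3 lower interaction calls were all Jun. Counted by gene, 3 of 10 passed for stretch at low shortening, against 48.9% of 10316 genes. For shortening at low stretch 5 of 10 did, against 47.9%, and for the interaction 3 of 10, against 32.6%. Whether the set as a whole differed from all genes was not tested. The average effect of shortening passed in 5 of 12, all lower (Junb, Csrnp1, Atf3, Ier2 and Ier5), where 31.5% of all probe sets passed (14.4% higher and 17.1% lower). These comparisons share arrays, since all 5 use the low-low group, and their values stand side by side for that reason.

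Shortening at high stretch was read on its own, because it compares the high-high with the high-low muscles and leaves the low-low arrays out of the difference. Limma called 0 of 12 member probe sets and 0% of all 18625, with 811 of all and 5 of the members at an unadjusted p under 0.05. The 5 were Atf3, Fos (-0.72, -1.42 to -0.01), Csrnp1, Ier5 and the dimmest Jun probe set (-0.38, -0.70 to -0.06). All 5 were lower with high shortening. In all, 9 of 12 differences were below 0, with a median of -0.35 against a median of 0.00129 over all probe sets. The 3 above 0 were Junb (0.28), Myc (0.10) and Nr4a1 (0.09). The 95% intervals reached 0.32 to 0.70 to either side, that is 1.25-fold to 1.63-fold, so differences of that size were within the error of 3 muscles against 3.

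The 3' to 5' index also differed between these groups, with 2.56, 3.14 and 3.10 in high-high against 3.09, 3.89 and 4.33 in high-low muscles. With it as a covariate 4 of the 5 were smaller: Atf3 was -0.38 (-1.13 to 0.37), Fos -0.24 (-1.15 to 0.66), Csrnp1 -0.33 (-1.05 to 0.39) and Ier5 -0.29 (-0.82 to 0.24). Jun went the other way, with -0.57 (-0.99 to -0.16) at its dimmest and -0.74 (-1.30 to -0.18) at its brightest probe set. None of the 12 passed after adjustment in that fit. In a fit with no covariate and with the low-low arrays kept out of the estimate of the spread, the interval was -1.58 to -0.20 for Atf3 and -1.49 to 0.06 for Fos, and again 0 members passed after adjustment. Leaving out 1 muscle made the difference more than 1.5 times smaller in 3 of the 5. Without high-high replicate 1, the lowest of the 12 in Fos and Atf3, Atf3 was at -0.58 and Fos at -0.42, and without high-low replicate 3 Csrnp1 was at -0.29. Stretch at high shortening, the comparison of high-high with low-high muscles, gave 0 of 12 member calls and 0% over all probe sets, with 0 members and 661 of all at an unadjusted p under 0.05, and member differences between -0.33 (Egr1) and 0.30 (Junb).

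Fos and Atf3 varied together from muscle to muscle. Over the 9 muscles outside the low-low group Pearson's r was 0.943 (exact permutation p = 0.000179, Benjamini-Hochberg adjusted p = 0.00161 over the 9 relations with Fos) and Spearman's rho 0.933 (exact permutation p = 0.000750, adjusted p = 0.00675). The permutations ran over all 9 muscles without regard to group, so their p also takes in differences between group means. After group means were removed r was 0.900 over 12 muscles, a description without a test. Within each of these 3 groups the muscles ranked in the same order for both genes. Without the 2 muscles farthest from the median of Fos, r was 0.880 (n = 7, exact permutation p = 0.00972, adjusted p = 0.0875), which no longer passed. Both genes also went with the 3' to 5' index over the 9 muscles, with r = 0.839 for Atf3 (exact permutation p = 0.00553, adjusted p = 0.0553 over 10 relations) and 0.741 for Fos (p = 0.0204, adjusted p = 0.102), and the part of the index in their co-variation was not tested.

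The other relations with Fos did not pass. Ier5 had r = 0.648, Egr1 0.636 and Csrnp1 0.627 with Fos (n = 9, exact permutation test, adjusted p = 0.148 each). Ier2 had 0.362, Myc 0.175, Jun 0.0566, Nr4a1 -0.148 and Junb -0.276. For Fos and Jun, partners in AP-1, the adjusted p was 0.883 by the exact permutation test, so no relation was detectable over these muscles. Among all 45 pairs of the 10 genes the median r was 0.275, with 38 above 0 and a range of -0.344 to 0.943, and Csrnp1 with Ier5 (0.845) and Junb with Nr4a1 (0.722) were other high pairs, given as a description. Among 10315 other genes the 5 most like Fos over the 9 muscles were Mpp3 (0.956), Cbx5 (0.953), Atf3, Nfil3 (0.931), a bZIP repressor, and Atp6v1e1 (0.906), a proton pump subunit, while the median gene had -0.0127. The 5 most like Egr1 were Idi1 (0.955), an isoprenoid enzyme, the kinase gene Map3k8 (0.910), Ckap5 (0.897), Blvrb (0.894) and Rell1 (0.894). After group means were removed, over 12 muscles, those listed for Fos gave 0.573, 0.792, 0.900, 0.87 and 0.917, in that order. Those listed for Egr1 gave 0.925, 0.861, 0.312, 0.532 and 0.708. Both lists are the top of a search over 10315 genes in 9 muscles, where high r can arise from the search alone. They are a description and were not tested.

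**Figure D3:**
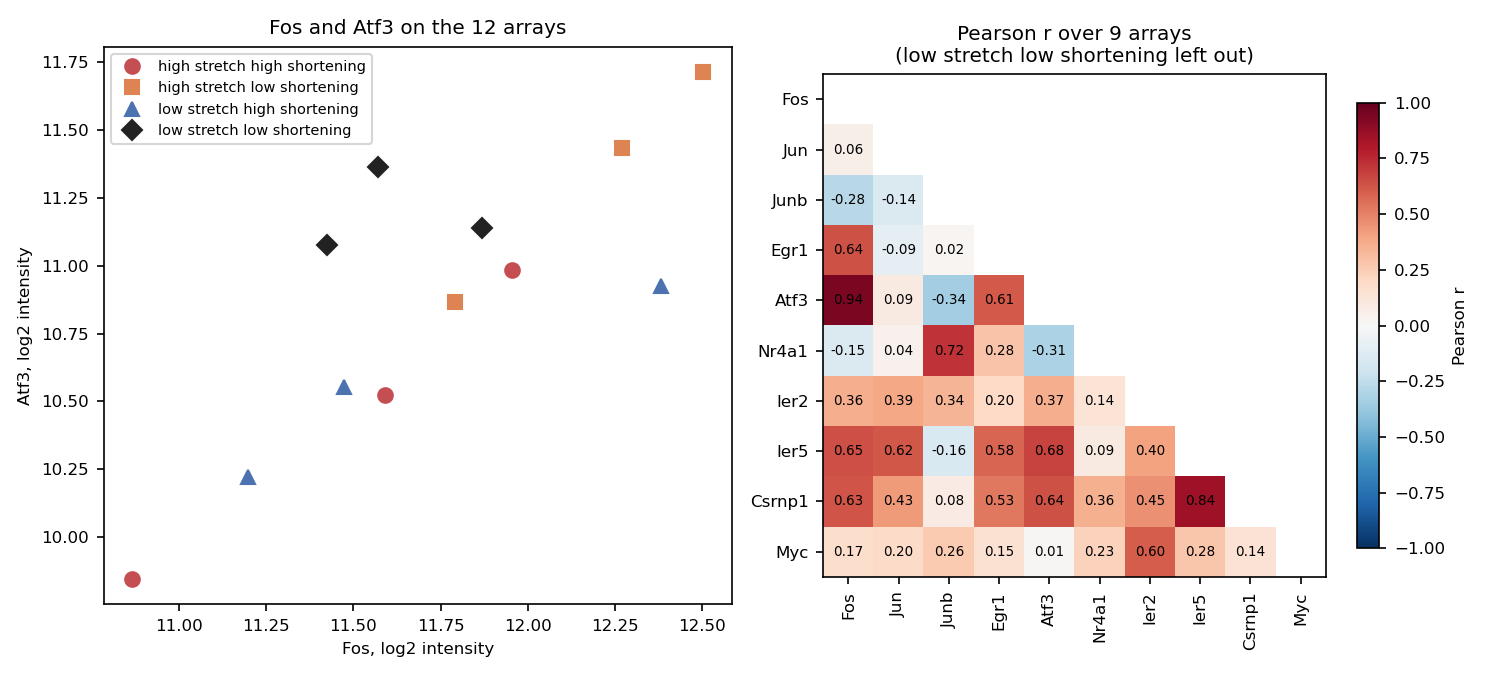
Left, log2 intensity of Atf3 (y axis) against Fos (x axis) in the 12 muscles, coloured by group; right, Pearson's r of each pair of the 10 genes over the 9 muscles outside the low-low group, as a grid coloured from -1 (blue) to 1 (red). Fos with Atf3 (0.943) and Csrnp1 with Ier5 (0.845) are the darkest cells, and Fos with Junb is at -0.276.

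The wider pathway was read from lists of other genes, for the interaction, where 32.6% of 10316 genes passed (17.9% higher and 14.7% lower) with a median of -0.00860. Of the AP-1 and ATF relatives 11 of 17 were tested, and 3 were higher and 1 lower (median 0.19). Maff, a small MAF protein, averaged 8.93, 8.93 and 8.76 in the high-high, high-low and low-high groups against 10.81 in the low-low group (interaction 2.05, adjusted p = 0.000101). Atf5 (1.42) and Atf4 (1.16), bZIP factors of the stress response, had the same sign, and Atf1, a CREB relative, the opposite one (-0.63, adjusted p = 0.00610). The list of EGR and NR4A relatives also held their co-repressors and Ier3, Ier5l, Csrnp2 and Csrnp3. Of this list 8 of 11 genes were tested, with 1 higher and 3 lower (median -0.03). Ier3, an apoptosis regulator, averaged 10.33, 10.18 and 10.29 against 12.72 (2.59, adjusted p = 0.000319). Egr2 went the other way, with 7.46, 7.50 and 7.37 against 6.12 (-1.30, adjusted p = 0.0130), as did Nr4a3 (-1.34) and Csrnp2 (-1.09). So Egr2 and Nr4a3 passed where their relatives Egr1 and Nr4a1 did not; the differences between relatives were not tested.

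Among 27 tested of 30 other immediate early genes 7 were higher in the interaction and 0 lower (median 0.34). Cebpb, a bZIP factor of inflammation and repair, averaged 9.11, 9.11 and 9.13 in the high-high, high-low and low-high groups against 11.95 in the low-low group (2.82, adjusted p = 1.10e-05). Gadd45a, a growth arrest gene, gave 2.27, Zfp36, whose protein speeds the decay of AU-rich messages, 1.88, and the GTPase gene Rhob 1.68. Of 9 tested MYC partners of 12, 3 were higher (Mnt 0.91, Mxd4 0.66 and Mxd1 0.66, which compete with MYC for MAX) and 1 lower (Zbtb17, which encodes MIZ1, -0.75), with a median of 0.42. Of 18 tested upstream kinases and factors of 29, 2 were higher and 5 lower (median -0.13). Elk4, an ETS partner of serum response factor, averaged 10.25, 10.33 and 10.43 against 8.75 (-1.76, adjusted p = 0.000111), and its relative Elk3 gave -1.27. Mapk9, which encodes a JNK kinase, averaged 5.56, 5.48 and 5.32 against 7.31 (2.07, adjusted p = 0.000669), and Map2k3 gave -0.91.

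In the single comparisons, stretch at low shortening passed as higher and lower in 1 and 5 AP-1 and ATF relatives. It did so in 3 and 1 genes of the list with EGR and NR4A relatives, and in 3 and 9 other immediate early genes. MYC partners gave 1 and 4 and upstream genes 6 and 3, where 48.9% of all genes passed (22.8% higher and 26.1% lower). Shortening at low stretch gave 1 and 5, 3 and 1, 1 and 10, 1 and 3, and 5 and 3 in the same order, where 47.9% of all genes passed (23.4% higher and 24.4% lower). Both use the low-low arrays. Shortening at high stretch called 0 genes in each list, and its list medians lay between -0.12 and 0.000504 (limma, 0% of all genes).

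**Figure D4:**
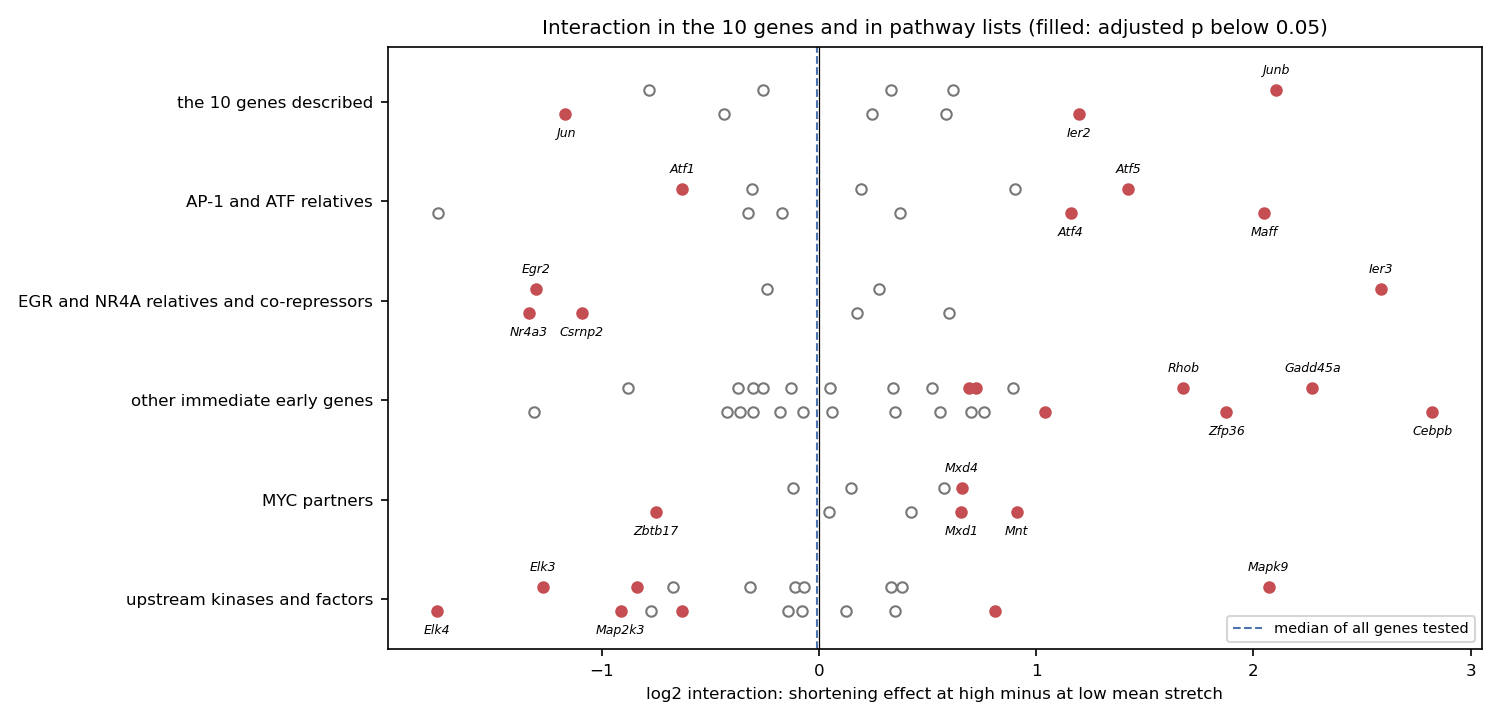
Interaction on the log2 scale (x axis: effect of shortening at high minus at low mean stretch) for each tested gene of the 10 described and of the 5 pathway lists (y axis); filled points passed at an adjusted p below 0.05 and the dashed line is the median of all genes tested. Cebpb (2.82), Ier3 (2.59), Gadd45a (2.27) and Junb (2.10) lie farthest right, and Elk4 (-1.76) is the filled point farthest left.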

How the data were processed

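RNA of 12 muscles (100 ng each) was labelled with an Affymetrix 3' IVT kit and read on 1 array per muscle. The deposited values are log2 intensities that the authors normalized with RMA, per the submitters' processing notes; its version, the probe positions and a genome build are not given in the sources used here. Of 31099 probe sets 57 controls were left out; 20826 had 1 gene symbol, 436 several and 9780 none, and all 15 member symbols were the same in RefSeq (GRCr8). The authors' filtered table, with an intensity of 50 in its header, held 16391 probe sets and 12 of the 15.

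A mean of at least the 40th percentile (4.91) was required, and 18625 probe sets met it. The fit (limma 3.58.1, R 4.3.3) had 1 coefficient for each group, with moderated variances, and Benjamini-Hochberg adjustment ran over all 18625 at a threshold of 0.05. Genes of lists were read at their probe set of highest mean (10316 genes). Correlations used exact permutations (scipy 1.17.1, two-sided). The steps were tested on simulated data. Precision is limited by the number of arrays: 95% intervals of group differences had a median reach of 0.36 log2 to either side.

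The members and lists were chosen with earlier results of these data known. The 10 genes were named whatever their values, with up to 4 genes of smallest adjusted interaction p per list and the 5 genes most like Fos and Egr1. Marker genes of other cell types were read as list means. Alternatives were no filter, the filtered table, 1 probe set per gene, repeated quantile normalization, values raised to the filter, a trended robust prior, weighted arrays, a replicate block, the index, weight or age as a covariate, the low-low group left out, a threshold of 0.1 and each array left out. Residuals of same-numbered arrays in different groups had a mean r of 0.0042 (-0.158 to 0.213, 18 pairs), so the numbers were not taken as pairs.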

Additional observations from a re-analysis of the deposited data

Results flagged for a closer look

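The effect of shortening differed between the levels of mean stretch, by limma's interaction test over all 12 muscles, in 3 of the 10 genes. It was 2.10 log2 in Junb (adjusted p = 0.000122), where shortening gave 0.28 at high stretch against -1.82 at low stretch. It was 1.20 in Ier2 (adjusted p = 0.00188), with -0.16 at high and -1.35 at low stretch. In Jun it was -1.17, -1.10 and -0.72 at its 3 probe sets (adjusted p = 0.0120, 0.0170 and 0.0201), with -0.35, -0.27 and -0.38 at high and 0.82, 0.83 and 0.34 at low stretch. Of all probe sets 32.3% passed the same test. The value at low stretch is the one that uses the low-low arrays, and the mean 3' to 5' index was 2.94 to 3.77 in the other groups, against 1.36 in the low-low group.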

How the results depend on the processing

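Of 84 results (12 probe sets in 7 contrasts) 25 passed. Under the alternatives that could be read for them, which leave out the fit without the low-low group, 7 of the 25 passed each time and 0 changed sign. Among results that had not passed, 72 values changed sign, counted over results and alternatives, and 8 results that had not passed did so under at least 1. The number of member probe sets called changed most with the index or the weight as a covariate, and with age it was the same in all 7 contrasts. With the 3' to 5' index it was 1 for stretch at low shortening, 2 for shortening at low stretch, 1 for the interaction and 1 for the average effect of stretch, against 5, 6, 5 and 4 without it; over all probe sets the calls were 2085, 3275, 1104 and 2406, against 9033, 8763, 6015 and 6252. With the labelled weight it was 3, 3 and 2 for the first 3 of these, and 3990, 4524 and 2162 over all probe sets. With 1 probe set per gene it was 3 for stretch at low shortening and 3 for the interaction, since fewer probe sets were then tested. The average effect of shortening kept 5 member calls with the index, where 4806 of all 18625 probe sets passed, against 5861 without it. With each array left out in turn the count was 0 to 0 for stretch at high shortening, 5 to 6 for stretch at low shortening, 0 to 0 for shortening at high stretch, 6 to 7 for shortening at low stretch, 4 to 5 for the interaction, 3 to 4 for the average effect of stretch and 5 to 6 for that of shortening. The Jun probe set 1389528_s_at passed for the average effect of stretch (0.46) but not in 9 of the 12 fits without an array. The correlation of Fos with Atf3 was 0.88 without 2 muscles (adjusted p = 0.0875). After repeated quantile normalization the average effect of stretch had 3138 higher and 3135 lower calls over all probe sets, against 2674 and 3578. The fit with the replicate number as a block (replicate block) gave the same member counts: 0, 5, 0, 6, 5, 4 and 5 in the order above. Without the low-low group the contrasts at low stretch or low shortening, the interaction and the averages cannot be read; the other pair gave 0 and 0 member calls. Calls lost with the index or the weight also went with wider errors, since neither measure overlapped between the low-low group and the others. The cause of these changes was not tested.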
